A study of Mus musculus with 11 samples.

Results

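The 8 S100 calcium-binding protein genes described here are S100a1, S100a4, S100a6, S100a8, S100a9, S100a10, S100a11 and S100a13. They were chosen by mouse gene symbol and matched to the Ensembl identifiers of a table of raw gene counts. They are 8 of the 51912 genes in that table, and all 8 were among the 15703 genes that passed a filter on low counts.

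The study asked whether the order in which bone marrow cells acquire mutant CSF3R, the receptor of granulocyte colony-stimulating factor, and mutant CEBPA, a transcription factor of myeloid differentiation, changes their expression. Marrow of C57BL/6 mice carrying a Rosa26 ERT2-Cre allele was transduced with 2 retroviral vectors, of which a GFP vector expressed its oncogene at all times and a red fluorescent vector expressed its oncogene only after Cre recombination. CSF3R-only cells (n = 4) carried CSF3R T618I in the first vector and an empty second vector. CSF3R-first cells (n = 3) carried CSF3R T618I in the first vector and CEBPA V314VW in the inducible one, and CEBPA-first cells (n = 4) carried the same genes the other way round. The marrow donors were 6 to 12 weeks old. All 11 samples were lineage-negative cells sorted for both fluorescent proteins and then kept for 48 h with 500 nM 4-hydroxytamoxifen, which activates the Cre recombinase, in medium without added cytokines. Every group therefore carried the activated receptor, none was untransduced, and the oncogenes were human genes driven from a viral vector rather than from their own loci. Nothing in the labels says whether lettered replicates came from separate mice, so the p-values below measure only the spread between these samples.

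S100 proteins are small calcium sensors with EF-hand motifs that act mostly as dimers. S100a8 and S100a9 pair to form calprotectin, a major cytosolic protein of neutrophils that binds zinc and manganese and, once released, engages Toll-like receptor 4 and the receptor Ager. Most of the family lies in a cluster on a single chromosome, and S100a8 and S100a9 are widely used as markers of granulocytic and monocytic maturation.

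All 8 genes lay on chromosome 3 (GRCm38). From S100a1 to S100a9, 6 of them sat within 185 kb, and S100a11 and S100a10 followed after a gap of 2825 kb. S100a8 (ENSMUSG00000056054, chr3:90668978-90670035, + strand) and S100a9 (ENSMUSG00000056071, chr3:90692632-90695721, - strand) each had 3 exon blocks. S100a1 (ENSMUSG00000044080, chr3:90511034-90514392, - strand) and S100a13 (ENSMUSG00000042312, chr3:90514435-90524581, + strand) stood head to head with 42 bases between them. The others were S100a4 (ENSMUSG00000001020, chr3:90603771-90606045), S100a6 (ENSMUSG00000001025, chr3:90612882-90624181), S100a11 (ENSMUSG00000027907, chr3:93520488-93526287) and S100a10 (ENSMUSG00000041959, chr3:93555080-93564643), all on the + strand.

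The promoter windows of the calprotectin genes are shown because these genes held most of the family's reads and because one of the oncogenes is a C/EBP factor. The windows run from 250 bases before to 50 bases after the RefSeq start (GRCm38.p6), 5′ to 3′ on the gene's own strand, at chr3:90668821-90669120 (+) for S100a8 and chr3:90695672-90695971 (-) for S100a9. Capitals mark matches to a C/EBP core (TTNNGNAA on either strand) or to TATAAA.
S100a8: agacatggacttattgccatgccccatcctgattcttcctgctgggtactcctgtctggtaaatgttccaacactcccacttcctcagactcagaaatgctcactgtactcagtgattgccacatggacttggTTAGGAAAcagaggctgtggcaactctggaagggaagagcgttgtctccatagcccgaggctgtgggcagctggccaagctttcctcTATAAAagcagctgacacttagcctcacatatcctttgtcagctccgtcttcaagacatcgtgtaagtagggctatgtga
S100a9: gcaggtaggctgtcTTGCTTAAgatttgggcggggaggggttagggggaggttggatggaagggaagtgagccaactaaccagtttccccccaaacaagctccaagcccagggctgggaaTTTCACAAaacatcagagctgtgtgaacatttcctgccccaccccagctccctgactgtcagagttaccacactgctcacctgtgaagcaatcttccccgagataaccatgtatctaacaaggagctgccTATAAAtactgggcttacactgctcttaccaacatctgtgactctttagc

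S100a8 held 1 C/EBP match, TTAGGAAA at -117 from the start. S100a9 held 2, TTGCTTAA at -236 and TTTCACAA at -130, both read on the opposite strand. The TATAAA match began at -30 in S100a8 and at 1 in S100a9, counted from the annotated start. The C/EBP letters occurred in 40.7% of 32851 promoter windows of the same length and TATAAA in 13.6%, so a match by itself is common. Of the 7 members with a window (S100a10 had none in the table), only S100a8 and S100a9 held the C/EBP letters, S100a4 also held TATAAA, at -31, and none held a STAT match (TTCNNNGAA, in 8.3% of windows). These are matches of letters and not measured binding sites.

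The window of S100a13 (chr3:90514185-90514484, +) is shown because it shares 204 bases with that of S100a1, which is read in the other direction. Capitals mark the shared bases.
S100a13: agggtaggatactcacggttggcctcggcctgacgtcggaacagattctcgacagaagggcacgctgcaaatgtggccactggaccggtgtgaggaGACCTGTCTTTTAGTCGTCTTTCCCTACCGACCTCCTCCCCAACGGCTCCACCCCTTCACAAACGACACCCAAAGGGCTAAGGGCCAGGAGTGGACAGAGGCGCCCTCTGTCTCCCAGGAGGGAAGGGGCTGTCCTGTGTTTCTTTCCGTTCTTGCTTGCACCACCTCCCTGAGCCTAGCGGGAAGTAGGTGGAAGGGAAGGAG

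Sequencing depth was similar in the 3 groups. Total counts ranged from 49499527 to 65937530 for CSF3R-only, from 47905747 to 61069929 for CSF3R-first and from 49782847 to 72268346 for CEBPA-first, and 3 counts, the limit that a count of 0 allows, came to 0.0383 to 0.0648 CPM (counts scaled to a common library size of 1000000). The CPM values here use edgeR's trimmed mean (TMM) library sizes. Genes of B cells, T and NK cells and dendritic cells summed to at most 6.81, 0.883 and 0.681 CPM in any sample. Genes of mature neutrophils were present, at 13729 to 16245 CPM in CSF3R-only, in cells that had been sorted as lineage-negative before the 48 h of culture. The human transgenes were not checked, since the table lists mouse genes.

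The S100 genes took the largest share of all reads in CSF3R-only and the smallest in CEBPA-first. Together the 8 genes held 1.56% ± 0.13 (SD, n = 4) of all counts of CSF3R-only, 1.11% ± 0.247 (n = 3) of CSF3R-first and 0.261% ± 0.0368 (n = 4) of CEBPA-first. The lowest share in CSF3R-only was 1.42% and the highest in CSF3R-first 1.38%, and the lowest in CSF3R-first was 0.899% against a highest of 0.294% in CEBPA-first. The 3 groups thus did not overlap. S100a8 and S100a9 supplied 90.5% to 95.8% of the family's counts in each sample.

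Levels of different genes were compared per kilobase of annotated exon. In CSF3R-only, S100a9 stood at 16074 CPM per kb and S100a8 at 10197, followed by S100a11 at 898 and S100a6 at 208. S100a10, S100a13 and S100a1 lay at 56.9, 53.4 and 52.0 CPM per kb, with S100a10 overlapping S100a13 and S100a13 overlapping S100a1 across samples, and S100a4, whose exons overlap another gene, was lowest at 13.3. In every CSF3R-only sample S100a9 ranked 2 and S100a8 ranked 4 among all genes on this scale. In CEBPA-first S100a9 ranked 4 or 5 and S100a8 ranked 9.

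The order within the family changed mainly through S100a6, which encodes calcyclin. On the per-kilobase scale it was number 4 of the 8 in CSF3R-only and in CSF3R-first (75.6 CPM per kb) and number 7 in CEBPA-first, where it lay at 15.2 CPM per kb, below S100a10 at 41.1, S100a13 at 25.7 and S100a1 at 21.6. With the median transcript length in place of the exon union, a choice made after the data were seen, S100a6 was number 5 in CEBPA-first, at 34.9 CPM per kb, and S100a10 alone had passed it. On the same scale S100a8 and S100a9 overlapped across samples in all 3 groups. Among all genes S100a6 ranked 189 to 221 for CSF3R-only, 495 to 980 for CSF3R-first and 3230 to 4086 for CEBPA-first.

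**Figure D1:**
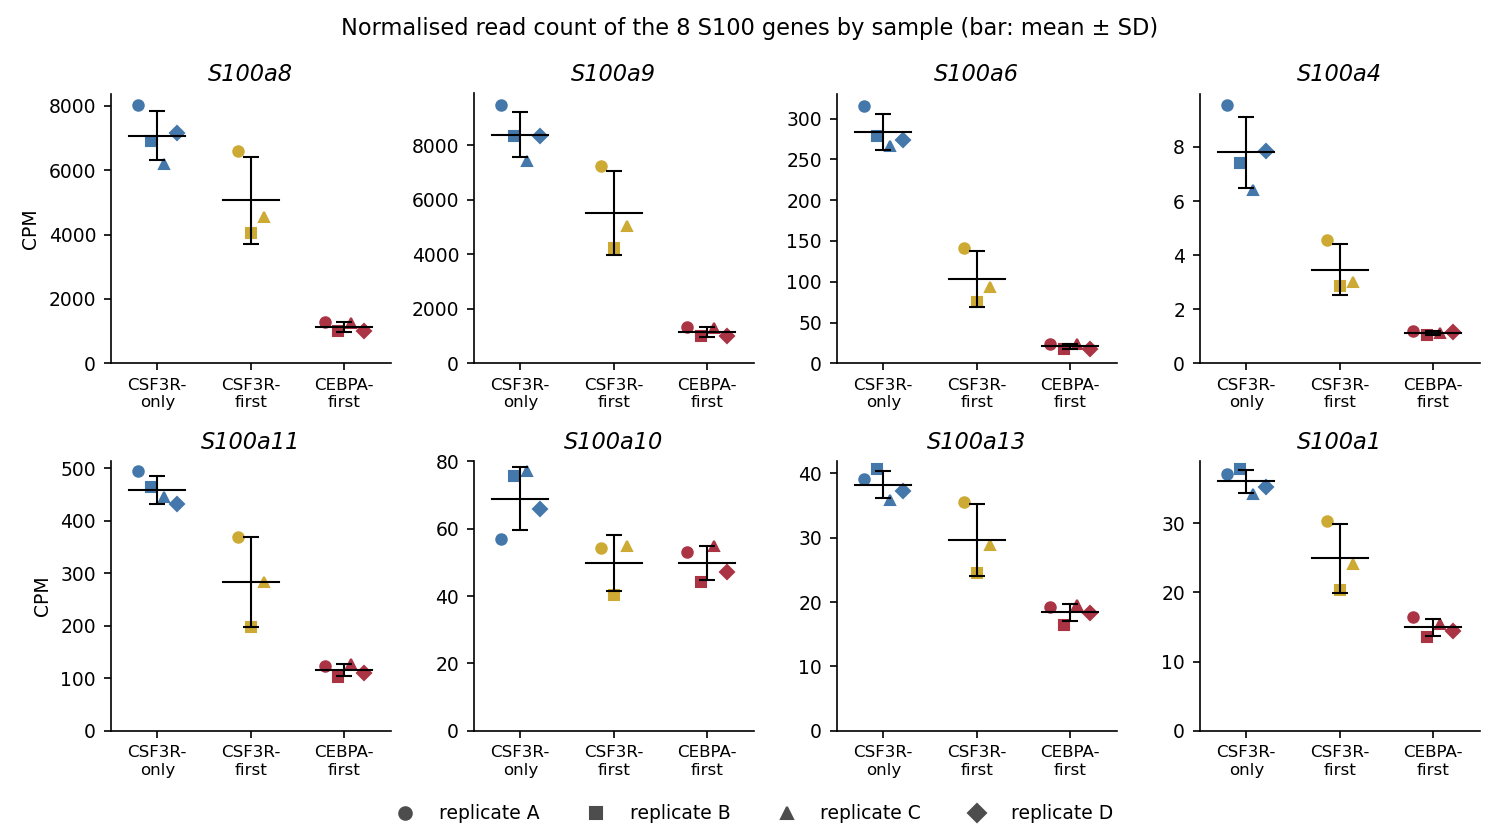
Normalised read count (CPM, linear axis from 0) of each S100 gene in every sample, with the 3 groups on the horizontal axis, a marker shape for each replicate letter, and bars for the mean and SD. CEBPA-first lay below CSF3R-only without overlap in all 8 panels, and for S100a10 CSF3R-first lay at the CEBPA-first level.

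Between CEBPA-first and CSF3R-only, the first comparison, every S100 gene was lower in CEBPA-first. All 8 were called lower by edgeR's quasi-likelihood test at a Benjamini-Hochberg adjusted p below 0.05, where 36.6% of all tested genes were called lower. With a fold change of at least 1 on the log2 scale as well, 7 of 8 were called, against 19.0% of all genes. S100a13 fell short of that fold with scaling by library size only (-0.92) and with no filter on low counts (-0.98). In all 8 genes the groups did not overlap, which held for 34.5% of all genes in this direction. The median log2 fold change of the 8 genes was -2.32, and that of all tested genes was 0. Whether fewer cells of a type or less RNA per cell lay behind a lower level cannot be told apart in bulk samples.

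The calprotectin genes had the largest absolute differences. S100a8 was at 8033, 6908, 6206 and 7161 CPM in CSF3R-only A to D and at 1294, 989, 1242 and 1000 CPM in CEBPA-first A to D. S100a9 was at 9470, 8332, 7423 and 8337 CPM in CSF3R-only and at 1335, 992, 1306 and 985 CPM in CEBPA-first. For both genes every CSF3R-only sample lay above every CEBPA-first sample, with a wide gap between the groups. The log2 fold change was -2.65 (SE 0.16, edgeR adjusted p = 1.8e-08) for S100a8 and -2.86 (SE 0.17, adjusted p = 1.8e-08) for S100a9.

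S100a6 had the largest fold change of the 8 genes. It was at 316, 279, 266 and 274 CPM in CSF3R-only and at 23.8, 18.1, 23.5 and 17.9 CPM in CEBPA-first, a 13.6-fold lower level (log2 fold change -3.77, SE 0.18, edgeR adjusted p = 2.9e-09). Only 1.83% of tested genes had a log2 fold change this low or lower. S100a4, which encodes the metastasis-associated protein metastasin, was at 9.55, 7.41, 6.39 and 7.84 CPM in CSF3R-only and at 1.18, 1.04, 1.11 and 1.14 CPM in CEBPA-first (log2 fold change -2.80, SE 0.18, adjusted p = 2.8e-08). Its place in the order of levels given above is uncertain, since only 48.3% of its exon bases lay outside another annotated gene, Gm42674, which had 0 counts in every sample. How reads in the shared part were counted is not given in the sources used here.

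S100a11, which encodes calgizzarin, a partner of annexin A1, was at 494, 464, 446 and 431 CPM in CSF3R-only and at 123, 102, 127 and 110 CPM in CEBPA-first. Its log2 fold change was -1.99 (SE 0.15, edgeR adjusted p = 1.4e-07). Up to 58.1% of an S100a11 transcript was near-identical to sequence of Gm12854 or Gm7665, which reached at most 97 and 3 counts in any sample, against 5959 to 27207 for S100a11.

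The head-to-head genes S100a1 and S100a13 changed less. S100a1, whose protein is best known from heart muscle, averaged 36.1 ± 1.67 CPM (SD, n = 4) in CSF3R-only and 15.0 ± 1.23 (n = 4) in CEBPA-first (log2 fold change -1.27, SE 0.11, edgeR adjusted p = 3.2e-07). S100a13, which takes part in the release of proteins that lack a signal peptide, averaged 38.2 ± 2.13 and 18.4 ± 1.36 CPM (log2 fold change -1.06, SE 0.10, adjusted p = 1.1e-06). S100a10, the partner of annexin A2, had the smallest change: 57.1, 75.6, 77.1 and 65.9 CPM in CSF3R-only and 53.2, 44.3, 54.8 and 47.2 CPM in CEBPA-first (log2 fold change -0.47, SE 0.12, adjusted p = 0.0028). The lowest CSF3R-only value of S100a10, in replicate A, lay only just above the highest of CEBPA-first.

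**Figure D2:**
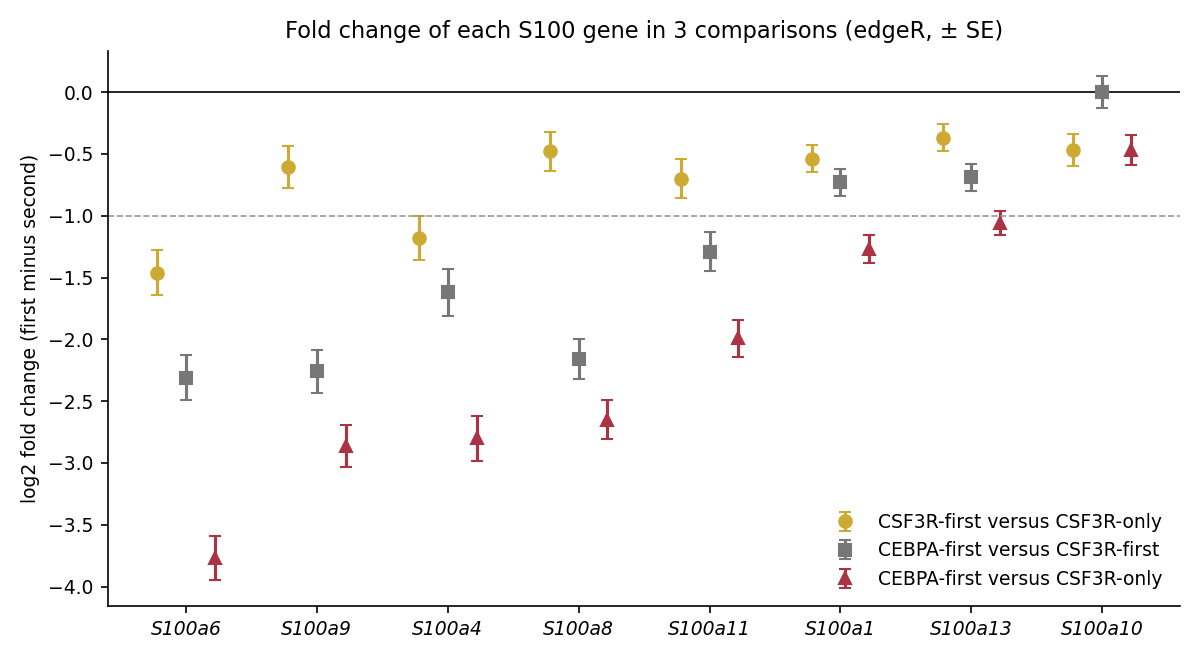
Log2 fold change of each S100 gene (vertical axis, first group minus second, edgeR, bars ± SE) in 3 comparisons, with the genes on the horizontal axis in the order of CEBPA-first versus CSF3R-only and a dashed line at -1. S100a6 and S100a4 were below -1 in all 3 comparisons, and S100a10 was at 0.00 between CEBPA-first and CSF3R-first.

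CSF3R-first against CSF3R-only asked what the later addition of mutant CEBPA changed in cells that already carried mutant CSF3R. It shares the CSF3R-only samples with the first comparison, so the values are set side by side only. The S100 genes were again lower, but mostly by less than 2-fold. All 8 were called lower at the adjusted p threshold, where 21.1% of all genes were, and 2 of 8, S100a6 and S100a4, passed the fold threshold too, where 4.53% of all genes did. The groups did not overlap in 7 genes, against 21.4% of all genes in this direction, and the median log2 fold change was -0.57 against -0.02 over all genes. The count of 8 rested on single libraries: it was 4 without CSF3R-first replicate B, where S100a8, S100a9, S100a10 and S100a13 were not called, and 5 without CSF3R-first replicate C, where S100a8, S100a9 and S100a13 were not.

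S100a6 was at 142, 75.4 and 93.0 CPM in CSF3R-first A to C, less than the lowest CSF3R-only value of 266 in each (log2 fold change -1.46, SE 0.18, edgeR adjusted p = 9.9e-05). S100a4 was at 4.55, 2.84 and 2.99 CPM (log2 fold change -1.18, SE 0.18, adjusted p = 3.7e-04). Both calls held in all 20 alternative analyses. S100a11 was at 368, 197 and 283 CPM (log2 fold change -0.70, SE 0.16, adjusted p = 0.0041), and its call held in all 20 as well.

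The calprotectin genes differed less here. S100a8 was at 6601, 4060 and 4537 CPM in CSF3R-first, and replicate A overlapped the CSF3R-only range, which began at 6206. Its log2 fold change of -0.48 (SE 0.16, edgeR adjusted p = 0.03) was also not called without CSF3R-only replicate A (adjusted p = 0.076), without CSF3R-only replicate D (0.058) or with only these 2 groups in the fit (0.058). S100a9 was at 7237, 4246 and 5050 CPM, just below the CSF3R-only minimum of 7423 in replicate A (log2 fold change -0.61, SE 0.17, adjusted p = 0.014).

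S100a1 was at 30.3, 20.4 and 24.1 CPM in CSF3R-first (log2 fold change -0.54, SE 0.11, edgeR adjusted p = 0.0028), and its call held in all 20 alternatives. S100a13 was at 35.6, 24.5 and 28.8 CPM, with replicate A just under the lowest CSF3R-only value of 35.9 (log2 fold change -0.37, SE 0.11, adjusted p = 0.017). S100a10 was at 54.2, 40.4 and 54.9 CPM (log2 fold change -0.47, SE 0.13, adjusted p = 0.011).

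The comparison of CEBPA-first with CSF3R-first sets the 2 orders of the same mutations side by side. Of the 8 genes, 7 were lower in CEBPA-first, where 24.3% of all genes were, and 5 of them also passed the fold threshold, where 10.3% of all genes did. The same 7 showed no overlap between groups, against 24.8% of all genes in this direction, and the median of the 8 log2 fold changes was -1.46 against 0 over all genes. The log2 fold changes were -2.31 for S100a6, -2.26 for S100a9, -2.16 for S100a8, -1.62 for S100a4 and -1.29 for S100a11, with edgeR adjusted p-values from 9.9e-07 to 4.2e-05. S100a1 and S100a13 differed by -0.73 (adjusted p = 2.7e-04) and -0.69 (adjusted p = 3.1e-04).

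S100a10 was the exception. It averaged 49.9 ± 4.94 CPM (SD, n = 4) in CEBPA-first and 49.8 ± 8.18 (n = 3) in CSF3R-first, and the ranges overlapped. The log2 fold change was 0.00 with a 95% interval from -0.27 to 0.27 (edgeR adjusted p = 1). The test thus did not separate the 2 orders for this gene, and the interval leaves room for a difference of up to 0.27 on the log2 scale either way.

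The place of CSF3R-first between the other groups was put on a scale from 0 at the CSF3R-only mean to 1 at the CEBPA-first mean of log2 CPM. S100a8 lay at 0.192 ± 0.139 (SD, n = 3) and S100a9 at 0.222 ± 0.137, near CSF3R-only. S100a13, S100a11, S100a6, S100a4 and S100a1 lay at 0.360 ± 0.256, 0.373 ± 0.227, 0.398 ± 0.122, 0.430 ± 0.134 and 0.435 ± 0.225. The median was 0.427 over all genes that passed both the adjusted p and the fold threshold between CEBPA-first and CSF3R-only. Without CSF3R-first replicate B, S100a13 lay at 0.239. S100a10 lay at 1.02 ± 0.541, which is at CEBPA-first, although its scale is short because its whole change was small. The 3 CSF3R-first libraries differed in the same order for most genes: replicate B was the lowest of the 3 in all 8 genes and replicate A the highest in 7, S100a10 being the exception. Replicate B was also lowest in 54.3% of all genes that were lower in CEBPA-first, and the median position over genes that differed between CEBPA-first and CSF3R-only was 0.28, 0.528 and 0.456 in replicates A, B and C.

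**Figure D3:**
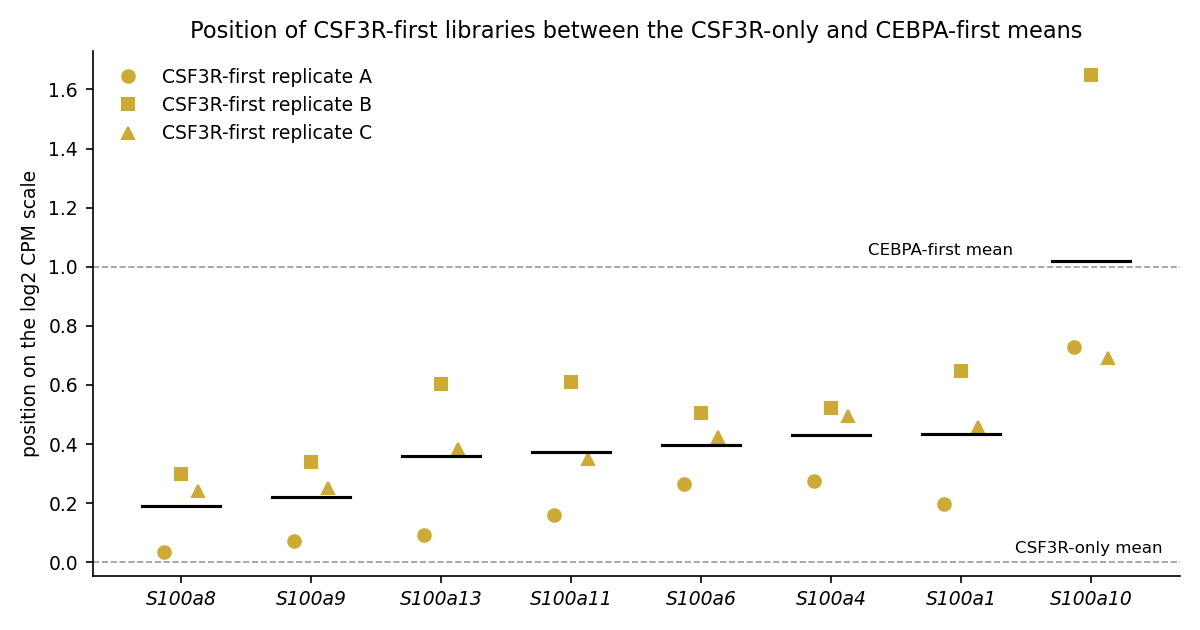
Position of each CSF3R-first library (points, one shape per replicate) and their mean (line) for each S100 gene, on the log2 CPM scale with 0 at the CSF3R-only mean and 1 at the CEBPA-first mean. S100a8 and S100a9 had the lowest means, 0.192 and 0.222, and replicate B had the highest position in all 8 genes.

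Ratios of raw counts between family members, which need no scaling between libraries, are given as a description because they were chosen after the values were seen. S100a6 reads amounted to 3.93%, 4.04%, 4.29% and 3.83% of S100a8 reads in CSF3R-only A to D, to 2.14%, 1.86% and 2.05% in CSF3R-first A to C, and to 1.84%, 1.83%, 1.89% and 1.79% in CEBPA-first A to D. On this measure CSF3R-first stood near CEBPA-first, and its replicate B fell within the CEBPA-first range, while for the level of S100a8 itself it stood near CSF3R-only. S100a11 went another way, at 6.52% ± 0.539 of S100a8 reads for CSF3R-only, 5.55% ± 0.699 for CSF3R-first and 10.2% ± 0.612 for CEBPA-first (SD, n = 4, 3 and 4).

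The calprotectin pair did not keep a fixed ratio. There were 1.19 ± 0.0185 S100a9 reads per S100a8 read for CSF3R-only, 1.09 ± 0.0351 for CSF3R-first and 1.02 ± 0.0294 for CEBPA-first (SD, n = 4, 3 and 4). The lowest CSF3R-only ratio was 1.16 and the highest elsewhere 1.11, while CSF3R-first, from 1.05 to 1.11, touched CEBPA-first, from 0.985 to 1.05. The head-to-head pair did not keep a fixed ratio either, with 1.06 ± 0.0123 S100a13 reads per S100a1 read for CSF3R-only, 1.19 ± 0.0136 for CSF3R-first and 1.23 ± 0.0517 for CEBPA-first. CSF3R-only, at 1.05 to 1.08, was apart from the other groups, which overlapped each other.

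**Figure D4:**
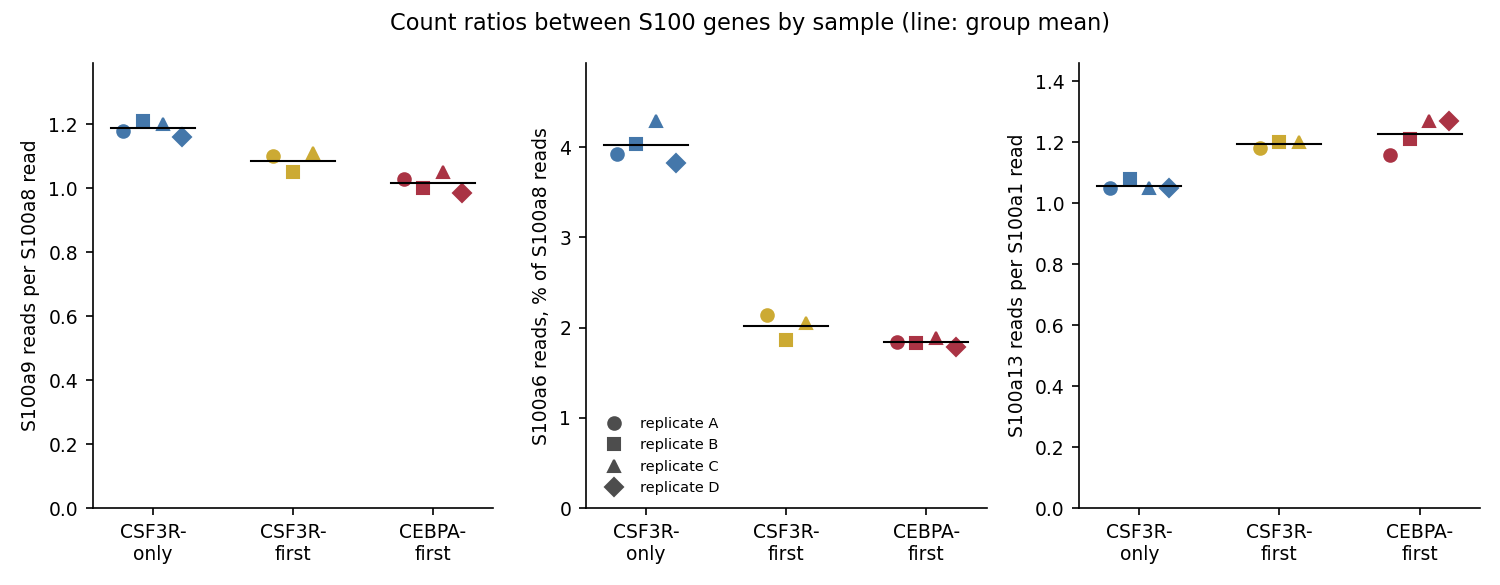
Count ratios between S100 genes in every sample (linear axes from 0, points by replicate letter, lines at group means): S100a9 per S100a8, S100a6 as a percentage of S100a8, and S100a13 per S100a1. S100a6 averaged 4.02%, 2.02% and 1.84% of S100a8 reads across CSF3R-only, CSF3R-first and CEBPA-first.

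Profiles over the 11 samples were compared by the root mean square difference of log2 CPM after centring each gene, where 0 means the same shape. The nearest members were S100a8 and S100a9 at 0.10 and the neighbours S100a1 and S100a13 at 0.102, whose promoter windows share bases as printed above. The next pair, S100a4 and S100a8, was at 0.298, and the farthest, S100a6 and S100a10, at 1.46. Among 6020 well-expressed genes outside the family, Gm14548 (0.118), Tlr2 (0.134) and Ebi3 (0.14) were nearest to the mean of S100a8 and S100a9. Tlr2, a Toll-like receptor for bacterial lipoproteins, averaged 521, 306 and 78.5 CPM across CSF3R-only, CSF3R-first and CEBPA-first, and Ebi3, a cytokine subunit, 67.6, 36.9 and 8.72 CPM.

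Along the chromosome, genes beside each other were not equally changed. In CEBPA-first against CSF3R-only the log2 fold change went from -1.27 and -1.06 at S100a1 and S100a13 to -2.80 and -3.77 at S100a4 and S100a6 and -2.65 and -2.86 at S100a8 and S100a9. Chtop, an mRNA export factor gene 2 kb beyond the S100a1 end of the cluster, was higher in CEBPA-first (138 against 107 CPM, log2 fold change 0.37, edgeR adjusted p = 1.1e-04). Pglyrp4, a peptidoglycan recognition protein gene 31 kb beyond the S100a9 end, was lower at 0.480 against 2.19 CPM (log2 fold change -2.21, adjusted p = 2.5e-05). Around S100a11 and S100a10, Tchh, the hair follicle gene of trichohyalin, was lower at 0.233 against 1.13 CPM (log2 fold change -2.28, adjusted p = 5.1e-06), and Them4, a thioesterase gene 745 kb away, differed by -0.32 (adjusted p = 0.046). S100a11 itself was at -1.99 and S100a10, the adjacent member, at -0.47.

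**Figure D5:**
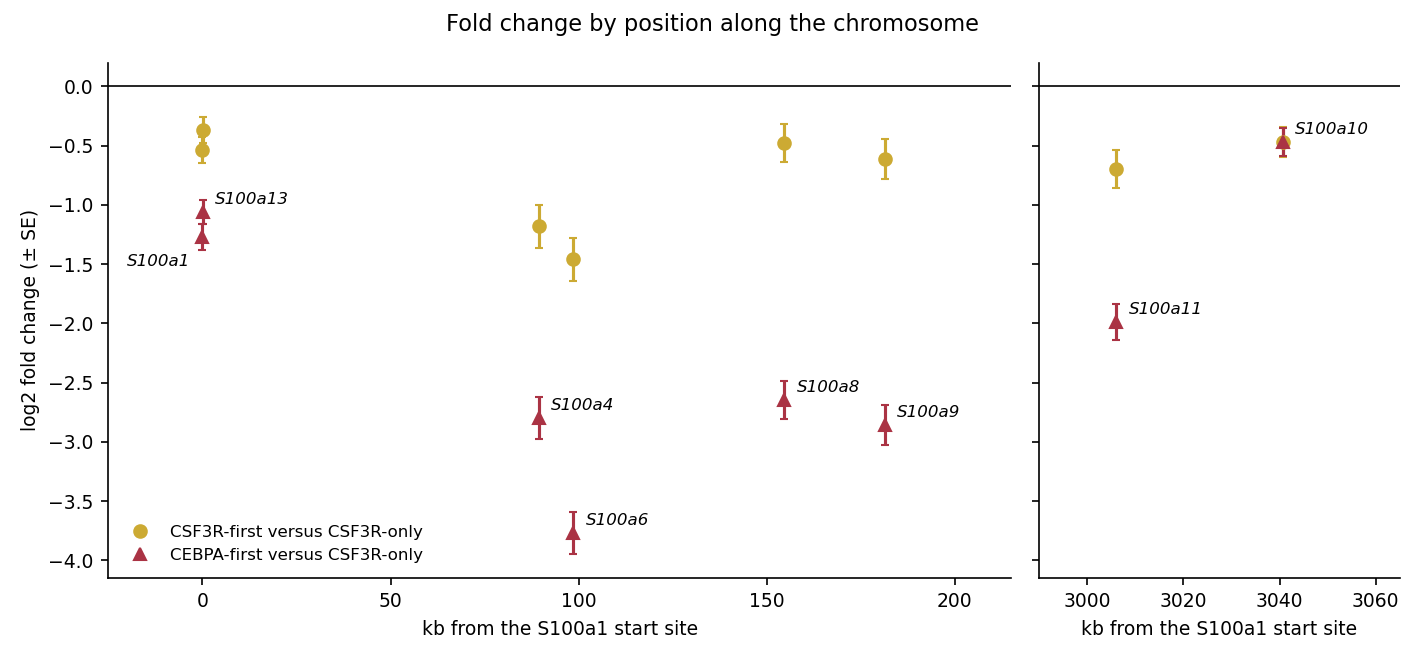
Log2 fold change (vertical axis, edgeR, bars ± SE) of the S100 genes against their distance in kb from the S100a1 start site, in 2 panels with different horizontal scales because of the gap of 2825 kb. Triangles are CEBPA-first and circles CSF3R-first, each against CSF3R-only. The lowest point in both was S100a6.

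Of the other S100 family genes, 9 were found in the table and 1, S100a7a, passed the filter. S100a7a, a relative of psoriasin, had 41, 19, 32 and 35 counts in CSF3R-only A to D, 12, 9 and 17 in CSF3R-first A to C, and 3, 0, 5 and 2 in CEBPA-first A to D. At these low counts its log2 fold change in CEBPA-first against CSF3R-only was -3.84 with an SE of 0.52. It was called lower in all 3 comparisons (edgeR adjusted p = 1.8e-05, 0.025 and 0.0047 for CEBPA-first against CSF3R-only, CSF3R-first against CSF3R-only and CEBPA-first against CSF3R-first). No CEBPA-first sample exceeded 5 counts, so S100a7a passed the filter only through the groups where it was higher. Its calls are therefore given as a description. The other 8, S100a2, S100a3, S100a5, S100a14, S100a16, S100b, S100g and S100z, reached at most 11 counts in any sample, and S100a16 was at 0 in all 11.

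Receptors and sensors of S100a8 and S100a9 were counted as a list. Of 10 listed genes, 7 were called lower and 1 higher in CEBPA-first against CSF3R-only (median log2 fold change -0.71), 5 and 1 in CSF3R-first against CSF3R-only (-0.35), and 5 and 1 in CEBPA-first against CSF3R-first (-0.34). Of all tested genes, 36.6%, 21.1% and 24.3% were called lower and 35.4%, 21.6% and 24.0% higher in these comparisons. The co-receptor gene Cd14 averaged 240, 133 and 42.0 CPM (with CSF3R-first samples from 77.5 to 234 CPM and a median of 88.5, so that its mean rests on a single library) across CSF3R-only, CSF3R-first and CEBPA-first, and Ly96, which encodes the MD-2 subunit of the Tlr4 complex, 18.7, 10.3 and 4.10 CPM. Alcam, a cell adhesion molecule gene, averaged 34.5, 18.8 and 10.2 CPM and was called lower in each comparison. Tlr4 averaged 101, 76.6 and 58.2 CPM and its adaptor Myd88 363, 309 and 260 CPM. Cd14, Ly96, Tlr4 and Myd88 were called lower in each comparison, although the ranges of Cd14 and Tlr4 overlapped between CSF3R-first and CSF3R-only and that of Tlr4 also between CEBPA-first and CSF3R-first. Ager, at 1.64 CPM in CSF3R-only, was called lower only in CEBPA-first against CSF3R-only (adjusted p = 0.0027), and the lymphocyte activation antigen Cd69 was higher in CEBPA-first at 51.3 against 22.3 CPM (log2 fold change 1.2, edgeR adjusted p = 2.4e-07).

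Annexins and other intracellular partners were counted in the same way. Of 21 tested genes of this list, 12 were called lower and 6 higher in CEBPA-first against CSF3R-only, 7 and 4 in CSF3R-first against CSF3R-only, and 10 and 4 in CEBPA-first against CSF3R-first, with medians of -0.49, -0.13 and -0.24. The shares of all tested genes in these comparisons were 36.6%, 21.1% and 24.3% lower and 35.4%, 21.6% and 24.0% higher, so the counts of higher genes lay near or below the background. Anxa1, the annexin that S100a11 binds, averaged 2004, 1214 and 526 CPM across CSF3R-only, CSF3R-first and CEBPA-first and was called lower in each comparison. Anxa2, the annexin that S100a10 binds, averaged 1013, 752 and 513 CPM. Anxa2 was called lower between CEBPA-first and CSF3R-first (log2 fold change -0.55, SE 0.19, edgeR adjusted p = 0.031), where S100a10 was at 0.00. The ranges of Anxa2 overlapped there, at 360 to 634 CPM in CEBPA-first and 555 to 991 CPM in CSF3R-first. In CSF3R-first against CSF3R-only the log2 fold change of Anxa2 was -0.43 (SE 0.19, adjusted p = 0.094), beside -0.47 (SE 0.13) for S100a10. The difference between these genes was not tested.

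Cacybp, the gene of the calcyclin-binding protein that S100a6 binds, changed in the opposite direction to S100a6. It averaged 176, 252 and 359 CPM across CSF3R-only, CSF3R-first and CEBPA-first, with log2 fold changes against CSF3R-only of 0.52 (edgeR adjusted p = 0.0019) and 1.03 (adjusted p = 9.2e-07). Myh9, the non-muscle myosin heavy chain that S100a4 binds, averaged 870, 643 and 410 CPM and was called lower in each comparison. S100pbp, the gene of an S100P-binding protein outside the family, lay between 12.3 and 15.2 CPM in all samples, with a log2 fold change of -0.19 in CSF3R-first against CSF3R-only (edgeR adjusted p = 0.04), 0.19 in CEBPA-first against CSF3R-first (adjusted p = 0.038) and 0.00 in CEBPA-first against CSF3R-only (adjusted p = 0.97).

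Calcium-binding EF-hand genes outside the family were counted beside these. Of 13 such genes, 6 were called lower and 2 higher in CEBPA-first against CSF3R-only, with a median log2 fold change of -0.12 against -2.32 for the 8 S100 genes. Among all tested genes 36.6% were lower and 35.4% higher in that comparison. Lcp1, the leukocyte actin-bundling protein plastin, averaged 4557, 3361 and 2451 CPM, and Efhd2, which encodes swiprosin, 634, 454 and 289 CPM across CSF3R-only, CSF3R-first and CEBPA-first. Rcn1, which encodes the endoplasmic reticulum protein reticulocalbin, differed in the other direction, at 29.7, 40.5 and 68.9 CPM (log2 fold change 1.22 in CEBPA-first against CSF3R-only, edgeR adjusted p = 9.6e-07), as did Calu, the gene of calumenin (log2 fold change 0.51). Of the 13, 4 were lower and 3 higher in CSF3R-first against CSF3R-only, and in CEBPA-first against CSF3R-first 6 and 2. The shares of all tested genes were 21.1% lower and 21.6% higher in the former and 24.3% and 24.0% in the latter.

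Cell type genes differed between the groups in both directions. Of all tested genes, 36.6% were called lower and 35.4% higher in CEBPA-first against CSF3R-only. These shares were 21.1% and 21.6% in CSF3R-first against CSF3R-only, and 24.3% and 24.0% in CEBPA-first against CSF3R-first. All 12 mature neutrophil genes were called lower in CEBPA-first against CSF3R-only (median log2 fold change -3.60) and against CSF3R-first (-2.0), and 11 of 12 in CSF3R-first against CSF3R-only (-1.29). Their summed level was 13729 to 16245 CPM for CSF3R-only, 6548 to 12089 for CSF3R-first and 4571 to 6180 for CEBPA-first, and none was at 0 throughout a group. Mmp8 averaged 7742, 6517 and 4824 CPM in these groups and was a large part of the sums. Its log2 fold change in CEBPA-first against CSF3R-only was only -0.68. It was also the gene not called in CSF3R-first against CSF3R-only. The 4 primary granule genes, which mark the earlier promyelocyte, were called higher in all 3 comparisons and summed to 2519 to 3061, 4274 to 4957 and 5872 to 6291 CPM. Of 10 monocyte and macrophage genes, 7 were lower and 2 higher in CEBPA-first against CSF3R-only (median log2 fold change -1.63), with sums of 5535 to 6104, 4070 to 6623 and 4032 to 5850 CPM in the 3 groups in the same order. These sums overlapped, with F13a1 (2577, 3125 and 4007 CPM) as a large part of them, while Csf1r, the receptor of macrophage colony-stimulating factor, averaged 1126, 590 and 223 CPM. Megakaryocyte genes were lower too, 5 of 5 in each comparison, with sums of 811 to 1104, 320 to 489 and 110 to 152 CPM. Eosinophil genes summed to 195 to 305, 38.1 to 102 and 15.6 to 22.9 CPM, and 2 of 3 were called lower in CEBPA-first against CSF3R-only (median -3.85). Of 5 mast cell and basophil genes, 4 were called lower in CSF3R-first against CSF3R-only (-0.68), while 3 were called higher and 1 lower in CEBPA-first against CSF3R-first (0.36). In CEBPA-first against CSF3R-only, 6 of 8 stem and progenitor genes were called higher and 1 lower (median log2 fold change 1.44), while 6 of 7 erythroid genes were called lower (-3.38). The 7 erythroid genes had a median of -0.43 between CSF3R-first and CSF3R-only, where their sums overlapped (100 to 318 against 226 to 332 CPM). The part of these cell types in the S100 differences was not tested.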

How the data were processed

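RNA-seq libraries of 11 samples in 3 groups were made with a low-input cDNA kit. The authors trimmed reads with Trimmomatic, aligned them with STAR (mm10 and DESeq2 also appear in the submitters' processing notes) and deposited a table of raw counts (whole numbers of reads on each gene, not normalized). The counting tool, annotation and use of strand are not given in the sources used here. Identifiers were matched to GENCODE M21 (GRCm38); the 279 without a symbol took up to 0.0279% of counts in a sample.

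Counts of all genes were filtered with filterByExpr, scaled by TMM and tested with edgeR 4.0.16 (R 4.3.3) in one quasi-likelihood fit of 3 groups without covariates, with Benjamini-Hochberg adjustment over 15703 genes. Calls were made at an adjusted p below 0.05, and a second rule required a log2 fold change of at least 1. The SE was taken from edgeR's F statistic (the absolute log2 fold change over its root). The log2 CPM values used a prior count of 2. Near-identical sequence meant 97% identity over 100 bases (BLAST 2.17.0). Alternatives used DESeq2 1.42.0, limma 3.58.1, other scalings, filters, a replicate block, and each sample left out. The fit was tested on simulated data. Floors cover counting error only. Named genes were the 8 members, listed relatives, partners and EF-hand genes, chromosomal neighbours and the 3 most alike genes; members and lists were chosen with earlier results of these data known.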

Additional observations from a re-analysis of the deposited data

How the results depend on the processing

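The counts of S100 genes called in CEBPA-first against CSF3R-only and in CEBPA-first against CSF3R-first stayed within 1.5 times of 8 and 7 under every alternative run. In CSF3R-first against CSF3R-only the count was 2 with the fold threshold, and 4 to 8 with each sample left out in turn, while other tools, scalings and filters did not move it past that limit. There the adjusted p of S100a8 ranged from 6.0e-04 to 0.14 over alternatives, that of S100a9 from 3.8e-04 to 0.07, that of S100a10 from 0.0036 to 0.055 and that of S100a13 from 5.5e-04 to 0.086. The log2 fold change of S100a10 between CEBPA-first and CSF3R-first, 0.00 as reported, changed sign without a call: it was -0.01 with upper quartile normalization, -0.02 with at least 10 counts in every sample, -0.03 with only the compared groups, and from -0.13 to 0.07 with each sample left out. Scaling by library size alone moved the median log2 fold change of all genes by 0.13 in CEBPA-first against CSF3R-only and ended no call of an S100 gene at the adjusted p threshold. In total 460 of the fold changes under alternatives kept their direction and side of the adjusted p threshold. Another 10 lost their call and 10 changed sign.

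Samples with the same letter deviated together in part. Their correlations ran from -0.11 to 0.36, against -0.34 to 0.38 for samples with different letters, and 12 of 20 best matches shared the letter. The labels do not say what the letters mean, so letters were not taken as pairs in the main fit. With the replicate block the counts of S100 genes called were 8, 8 and 7, as without it, and calls over all genes were 11501, 7216 and 7705 against 11314, 6703 and 7578.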
